A study of Mus musculus with 16 samples.

Results

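The osteoclast genes described here are 10 genes of bone resorption and its control, Acp5, Ctsk, Atp6v0d2, Dcstamp, Ocstamp, Oscar, Calcr, Tnfrsf11a, Tnfsf11 and Tnfrsf11b, out of 19938 genes measured. They were taken by gene symbol, through the probe annotation of the array, and each was represented by 1 probe set. The footpads came from AIRmax and AIRmin mice, outbred stocks bred from intercrossed inbred strains for high and low acute inflammation. RNA was hybridized to 16 Affymetrix Mouse Gene 1.0 ST arrays, 4 per group, each group holding 2 males and 2 females. Pristane mice had 2 intraperitoneal injections of 0.5 ml of this mineral oil 60 days apart and were sampled at day 160, while control footpads date from day 0, so pristane and elapsed time cannot be told apart. The groups were AIRmax pristane (arrays 109 to 112), AIRmax control (105 to 108), AIRmin pristane (117 to 120) and AIRmin control (113 to 116). Since the numbers run with the groups, any effect of array order cannot be told apart from the group. The labels give an age of 2 to 4 months for every mouse, and the methods count days from the second injection and do not state that control mice had received no oil.

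Osteoclasts are the multinucleated cells that dissolve bone, and they form by fusion of precursors of the monocyte and macrophage lineage. The cytokine RANKL (Tnfsf11), made by osteoblast-lineage cells, synovial fibroblasts and T cells, binds its receptor RANK (Tnfrsf11a) on the precursors, and the decoy receptor osteoprotegerin (Tnfrsf11b) captures RANKL before it can do so. In inflamed joints this axis is known to drive the erosion of bone. Within the precursor, RANK signalling together with receptors such as OSCAR induces the factor NFATc1, which with PU.1, MITF and AP-1 turns on the genes of fusion, acid secretion and matrix digestion. A footpad holds skin, muscle, joints and bone with marrow, so in these bulk samples fewer cells of a type and less RNA per cell cannot be told apart.

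The upstream sequences of 3 of these genes are shown because these factors are known to bind short motifs in such regions. RefSeq windows (GRCm38.p6) were given for 6 of the 10 genes, and for 5 of them the window adjoined the start of the gene. Each line holds the 250 bases before the start, read 5′ to 3′ on the strand of the gene. Capitals mark matches on either strand to the PU.1 motif GAGGAA or the MITF motif CATGTG.
Ctsk, chr3:95498960-95499209, plus strand: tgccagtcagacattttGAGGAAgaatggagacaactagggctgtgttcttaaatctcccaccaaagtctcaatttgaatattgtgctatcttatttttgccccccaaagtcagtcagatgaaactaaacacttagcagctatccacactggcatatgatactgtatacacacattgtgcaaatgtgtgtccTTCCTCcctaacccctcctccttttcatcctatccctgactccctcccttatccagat
Acp5, chr9:22135747-22135996, minus strand: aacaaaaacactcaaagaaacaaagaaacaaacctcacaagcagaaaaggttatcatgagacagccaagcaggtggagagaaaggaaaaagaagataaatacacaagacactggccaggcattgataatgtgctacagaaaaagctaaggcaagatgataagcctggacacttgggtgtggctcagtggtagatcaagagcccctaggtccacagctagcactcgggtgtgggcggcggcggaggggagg
Oscar, chr7:3616158-3616407, minus strand: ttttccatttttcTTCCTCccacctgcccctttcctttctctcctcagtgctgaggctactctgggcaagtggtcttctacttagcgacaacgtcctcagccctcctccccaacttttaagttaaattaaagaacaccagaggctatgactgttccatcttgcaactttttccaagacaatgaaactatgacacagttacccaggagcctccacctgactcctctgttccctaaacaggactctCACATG

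The Ctsk window held the PU.1 letters 2 times, beginning 233 and 58 bases before the start. The Oscar window held them once, 237 bases before the start, and held the MITF letters (as CACATG, on the other strand) 6 bases before it. PU.1 letters occurred in 23.3% and CATGTG in 12.3% of 32851 RefSeq windows of the same length. The NFAT core GGAAA, left in lower case above, occurred in 55.6% of the windows. It was found once in Acp5, 167 bases before the start, and 3 times in Oscar, at 249, 220 and 82 bases. It was also found once in Calcr (65 bases) and once in Tnfsf11 (117 bases). GAGGAA and GGAAA share the letters GGAA and can overlap. Neither the AP-1 motif TGANTCA (6.75% of windows) nor the MITF motif CACGTG (6.02%) was matched in these 5 windows. These matches describe letters only.

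Across the 4 groups, the genes of the resorbing cell had their highest mean signal in AIRmax pristane footpads, and the decoy receptor had its lowest there. Signals are on a log2 scale, on which 1 unit is a doubling, and levels of different genes are not compared because each probe set has its own scale. Of the 10, 7 were above the array's background in all groups. Background was read from 1027 olfactory receptor genes, silent in most tissues, and a gene was called near background where its group mean was under their 95th percentile. That percentile was 4.45 in AIRmax pristane, 4.37 in AIRmax control, 4.53 in AIRmin pristane and 4.45 in AIRmin control footpads. Calcr was near background in all 4 groups, and Oscar and Dcstamp were near background in both AIRmin groups. The plot of signals by array gives every value.

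**Figure D1:**
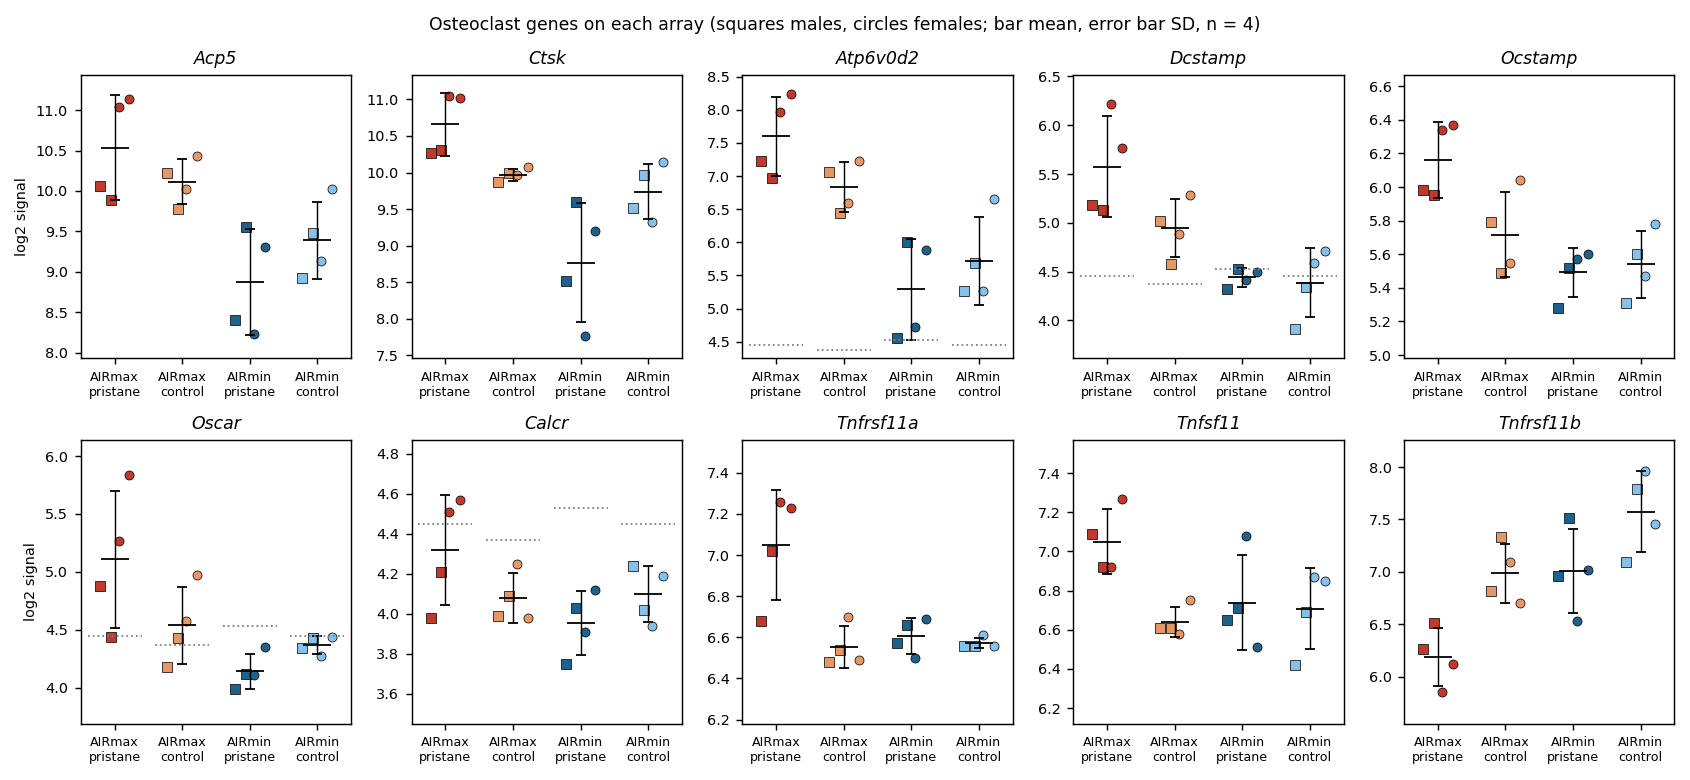
Log2 signal of each osteoclast gene on each array (squares males, circles females), by group, with group mean and SD (n = 4) and a grey dotted line at the olfactory receptor 95th percentile where it falls inside the panel. Acp5, Ctsk and Atp6v0d2 separate AIRmax pristane from AIRmin pristane arrays, every Calcr group mean is under the dotted line, and Tnfrsf11b is lowest in AIRmax pristane arrays.

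Ctsk (chromosome 3, 95499210 to 95509387, GRCm38.p6) encodes cathepsin K, the protease with which osteoclasts digest bone collagen. Its log2 signal was 10.27, 10.31, 11.04 and 11.02 in AIRmax pristane footpads, against 9.87, 9.99, 9.96 and 10.07 in AIRmax control footpads. In AIRmin pristane footpads it was 8.52, 9.60, 7.76 and 9.20, against 9.52, 9.96, 9.33 and 10.15 in AIRmin control footpads. All AIRmax pristane arrays thus lay above all AIRmax control and all AIRmin pristane arrays, while the AIRmin pristane and control arrays overlapped. Array 119, a female, was the lowest of the 16. Ctsk was 3.71-fold higher in AIRmax pristane than in AIRmin pristane footpads (log2 fold change 1.89, SE 0.38, limma adjusted p = 0.0491). Neither line alone passed the test. The log2 fold change of pristane over control was 0.69 (SE 0.19, adjusted p = 0.174) in AIRmax and -0.97 (SE 0.36, adjusted p = 0.306) in AIRmin mice. The difference between these 2 responses was 1.66 on the log2 scale (SE 0.45, unadjusted p = 0.00207, adjusted p = 0.198).

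Acp5 (chromosome 9, 22126727 to 22135746) encodes the tartrate-resistant acid phosphatase used to stain osteoclasts, an enzyme that activated macrophages make as well. Its signal was 10.06, 9.89, 11.04 and 11.14 in AIRmax pristane footpads, against 10.22, 9.78, 10.02 and 10.43 in AIRmax control footpads. In AIRmin pristane footpads it was 8.41, 9.55, 8.23 and 9.31, against 8.93, 9.48, 9.13 and 10.02 in AIRmin control footpads. The pristane arrays of the lines did not overlap, and within each line pristane and control arrays did. Acp5 was 3.15-fold higher in the mean of AIRmax pristane than of AIRmin pristane footpads (log2 fold change 1.66, SE 0.38, adjusted p = 0.0709), which missed the threshold of 0.05.

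Atp6v0d2 (chromosome 4, 19876838 to 19922566) encodes a subunit of the proton pump that acidifies the resorption pit, and in mice it is also required for fusion of osteoclast precursors. Its signal was 7.23, 6.97, 7.97 and 8.23 in AIRmax pristane footpads, against 4.55, 6.00, 4.73 and 5.89 in AIRmin pristane footpads. Control footpads had 7.06, 6.44, 6.59 and 7.23 in AIRmax and 5.27, 5.69, 5.26 and 6.66 in AIRmin mice. Every pristane array of AIRmax exceeded every pristane array of AIRmin, and the control arrays of the lines overlapped through array 116. The 4.96-fold difference between the pristane groups was the largest of the 10 genes (log2 fold change 2.31, SE 0.40, adjusted p = 0.0331). The same contrast in control mice was 2.15-fold (log2 fold change 1.11, SE 0.31, unadjusted p = 0.0056, adjusted p = 0.205).

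Dcstamp and Ocstamp encode membrane proteins that mouse precursors need to fuse. Dcstamp (chromosome 15, 39745930 to 39760938) had a signal of 5.18, 5.13, 6.22 and 5.77 in AIRmax pristane footpads, against 4.32, 4.53, 4.41 and 4.50 in AIRmin pristane footpads. The groups did not overlap, and Dcstamp was higher in AIRmax pristane footpads (log2 fold change 1.14, SE 0.23, adjusted p = 0.0487). Because the AIRmin pristane mean was near background, the fold of the means is given as at least 2.07-fold. That bound is measured against the olfactory receptor percentile of the group and makes no allowance for the spread of the arrays. Dcstamp control values were 5.02, 4.58, 4.89 and 5.29 in AIRmax and 3.91, 4.34, 4.59 and 4.71 in AIRmin mice, which overlapped. The AIRmax control mean was 1.41-fold the percentile of AIRmin control footpads, and the difference did not pass (limma adjusted p = 0.231). Ocstamp (chromosome 2, 165395450 to 165400394) had a signal of 5.98, 5.95, 6.34 and 6.37 in AIRmax pristane footpads, against 5.28, 5.52, 5.57 and 5.60 in AIRmin pristane footpads. Those groups also stood apart, with a 1.59-fold difference that missed the threshold (log2 fold change 0.67, SE 0.14, adjusted p = 0.0515). In control footpads Ocstamp lay between 5.49 and 6.04 in AIRmax and between 5.31 and 5.78 in AIRmin mice.

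Oscar and Calcr encode receptors of the osteoclast, OSCAR being a collagen receptor that costimulates differentiation and Calcr the receptor through which calcitonin halts resorption. Oscar (chromosome 7, 3609813 to 3616157) had 4.88, 4.44, 5.27 and 5.84 in AIRmax pristane footpads, against 3.99, 4.12, 4.11 and 4.35 in AIRmin pristane footpads. These did not overlap, but the AIRmin pristane mean was near background. The fold of the means is therefore given as at least 1.49-fold against the olfactory receptor percentile, again without allowance for spread. The difference did not pass (limma adjusted p = 0.0967). Calcr (chromosome 6, 3685678 to 3764713) ranged from 3.98 to 4.57 in AIRmax pristane footpads and from 3.75 to 4.12 in AIRmin pristane footpads. It ranged from 3.98 to 4.25 in AIRmax control and from 3.94 to 4.24 in AIRmin control footpads. No fold is given for Calcr, as every group mean was near background.

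Tnfrsf11a, the receptor RANK (chromosome 1, 105780673 to 105849444), had a narrow range of signals outside AIRmax pristane footpads. It was 6.68, 7.02, 7.26 and 7.23 in AIRmax pristane footpads, against 6.48, 6.54, 6.70 and 6.49 in AIRmax control footpads. It stayed between 6.50 and 6.69 in AIRmin pristane and between 6.56 and 6.61 in AIRmin control footpads. Array 109, at 6.68, overlapped with the control arrays, and the other AIRmax pristane arrays were above all arrays of the other 3 groups. The AIRmax response was 1.41-fold (log2 fold change 0.49, SE 0.14, unadjusted p = 0.0059, adjusted p = 0.173) and the AIRmin response 1.02-fold (log2 fold change 0.04, SE 0.08, adjusted p = 0.902). Their difference was 0.46 on the log2 scale (SE 0.16, unadjusted p = 0.00992, adjusted p = 0.394). Without array 109 this difference was 0.58 and passed (adjusted p = 0.046), where 0.602% of all genes did.

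Tnfsf11, the ligand RANKL (chromosome 14, 78277446 to 78308043), had 7.09, 6.92, 6.92 and 7.27 in AIRmax pristane footpads, against 6.61, 6.61, 6.58 and 6.75 in AIRmax control footpads. The AIRmax groups did not overlap, and their 1.33-fold difference did not pass over all genes (log2 fold change 0.41, SE 0.10, unadjusted p = 0.0032, adjusted p = 0.14). In AIRmin mice Tnfsf11 was 6.65, 6.71, 7.08 and 6.51 in pristane and 6.42, 6.69, 6.87 and 6.85 in control footpads, with means 1.02-fold apart (adjusted p = 0.958). Its pattern thus differed from that of Ctsk and Acp5 in the line comparison, where the pristane arrays of AIRmax and AIRmin overlapped (log2 fold change 0.31, SE 0.14, adjusted p = 0.277).

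Tnfrsf11b, the decoy receptor osteoprotegerin (chromosome 15, 54250619 to 54278484), ran opposite to the other genes in AIRmax mice. Its signal was 6.26, 6.51, 5.85 and 6.12 in AIRmax pristane footpads, against 6.82, 7.33, 7.09 and 6.70 in AIRmax control footpads. In AIRmin mice it was 6.96, 7.51, 6.53 and 7.02 in pristane and 7.09, 7.79, 7.96 and 7.46 in control footpads. Every AIRmax pristane array was below every array of the other 3 groups, array 119 being the nearest, and the AIRmin groups overlapped. The AIRmax pristane mean was 0.574-fold the AIRmax control mean (log2 fold change -0.80, SE 0.18, unadjusted p = 0.00137, adjusted p = 0.104). The AIRmin pristane mean was 0.675-fold the AIRmin control mean (log2 fold change -0.57, SE 0.23, adjusted p = 0.354). The difference of responses was -0.23 (SE 0.31, adjusted p = 0.922).

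Counted together, 3 of the 10 genes passed in the comparison of AIRmax pristane with AIRmin pristane, Atp6v0d2, Ctsk and Dcstamp, and all 3 were higher in AIRmax. Over all genes 271 passed (1.36%), 0.853% being higher in AIRmax. The fold changes of 9 genes were positive and that of Tnfrsf11b negative (-0.82, adjusted p = 0.0897), with a median of 0.82 against -0.01 over all genes. At an unadjusted p under 0.05 there were 9 of 10, against 18.8% of all genes. The groups did not overlap for 6 genes higher in AIRmax (5.04% of all genes) and 1 gene lower (5.81%). Single arrays decided the count of 3. None passed when AIRmax pristane array 109, 111 or 112 or AIRmin pristane array 117, 119 or 120 was left out, and the share of all genes passing was then 0.988%, 0.381%, 0.211%, 0.0702%, 0.186% and 0.0752%, in that order. Without AIRmin pristane array 118, Atp6v0d2 and Ctsk passed (1.31% of all genes). Without AIRmax pristane array 110, 6 passed (Acp5, Atp6v0d2, Ctsk, Dcstamp, Ocstamp and Oscar), where 2.61% of all genes did. Over these fits the log2 fold change stayed between 2.06 and 2.55 for Atp6v0d2, 1.55 and 2.17 for Ctsk, and 0.92 and 1.29 for Dcstamp. With the spread of all 16 arrays in 1 fit 8 genes passed, all but Calcr and Tnfsf11, and 7.62% of all genes did.

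**Figure D2:**
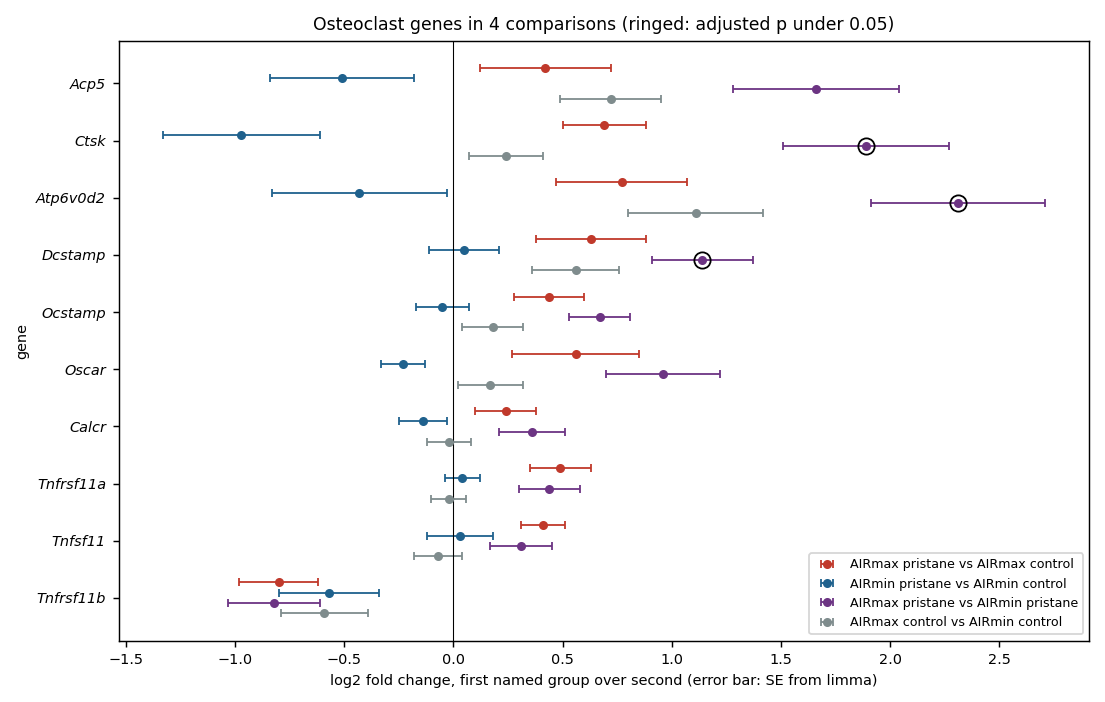
Log2 fold change of each osteoclast gene in the 4 comparisons of 2 groups, first named group over the second, with the standard error of limma (4 arrays per group). The ringed points, Ctsk at 1.89, Atp6v0d2 at 2.31 and Dcstamp at 1.14 in AIRmax pristane over AIRmin pristane, are those with an adjusted p under 0.05.

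Within AIRmax mice, limma called 0 of the 10 genes between pristane and control (adjusted p 0.104 to 0.55), where 0.281% of all genes passed. At an unadjusted p under 0.05 there were 7 of 10, against 14.4% of all genes, and the median log2 fold change was 0.47, against 0.03 over all genes. Pristane and control arrays did not overlap for 2 genes higher with pristane, Ctsk and Tnfsf11 (5.09% of all genes), and for 1 gene lower, Tnfrsf11b (4.3%). Within AIRmin mice 0 of 10 passed, where 0% of all genes did, and 3 reached an unadjusted p under 0.05 (12.4% of all genes). These were Ctsk, Oscar and Tnfrsf11b, each with a negative fold change, and the median over the 10 genes was -0.19, against 0.02 over all genes. Pristane and control arrays of AIRmin overlapped for every one of the 10 (7.51% of all genes did not overlap). The line difference at day 0 had 0 of 10 genes passing (0.0802% of all genes), and 4 reached an unadjusted p under 0.05 (16.8% of all genes). They were Acp5, Dcstamp and Atp6v0d2, higher in AIRmax control footpads, and Tnfrsf11b, lower there (0.666-fold, adjusted p = 0.227). AIRmax and AIRmin control arrays overlapped for all 10 (10.3% of all genes did not overlap). The difference between the responses of the lines passed for 0 of 10 genes, against 0.171% of all genes, with 5 at an unadjusted p under 0.05, against 8.21%. These comparisons share arrays with each other, so their values are not separate pieces of evidence.

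Within AIRmax pristane mice the signals of the 10 genes were set out by sex, with 2 mice of each. Both females (arrays 111 and 112) were above both males (109 and 110) for 8 of the 10 genes, all but Tnfsf11 and Tnfrsf11b, an order seen for 15.7% of all genes. For Tnfrsf11b both females were below both males (10.9% of all genes). In AIRmax control mice the first order held for 1 gene (18.1% of all genes), in AIRmin pristane mice for 1 (13.9%) and in AIRmin control mice for 3 (21.6%). For Acp5 the pristane minus control difference in AIRmax mice was -0.03 in males and 0.87 in females, and for Atp6v0d2 it was 0.35 and 1.19 (2 mice per sex and group). The AIRmax minus AIRmin difference between pristane mice had the same sign in both sexes for all 10 genes. For Ctsk it was 1.23 in males and 2.56 in females, and for Atp6v0d2 it was 1.83 and 2.79. With sex as a covariate 3 genes passed that comparison (0.868% of all genes), Atp6v0d2, Dcstamp and Ocstamp, and Ctsk did not (adjusted p = 0.0758). Muscle markers, as a mean deviation from the 16 arrays, were at -1.72 and -1.16 on the females 111 and 112 and at -0.41 and -0.07 on the males 109 and 110. The 10 genes are read on the same 4 arrays and are not separate observations of sex. Whether the responses of the sexes differed, and the part of muscle in these values, was not tested.

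The signal of the ligand relative to its decoy, Tnfsf11 minus Tnfrsf11b on each array, is read only as a difference between groups. As a deviation from the mean of 16 arrays it was 0.99, 0.57, 1.23 and 1.30 in AIRmax pristane footpads, against -0.06, -0.56, -0.35 and 0.20 in AIRmax control footpads. In AIRmin mice it was -0.16, -0.64, 0.71 and -0.36 in pristane and -0.51, -0.95, -0.93 and -0.46 in control footpads. The AIRmax pristane arrays stood above those of both control groups, and AIRmin pristane array 119, at 0.71, reached into their range. In AIRmax mice the pristane minus control difference was 1.21 (SE 0.23, exact two-sided permutation p = 0.0286, the smallest that 4 against 4 arrays allow, 0.114 after adjustment over 4 comparisons). In AIRmin mice it was 0.60 (SE 0.32, exact permutation p = 0.114). Between the pristane groups, AIRmax minus AIRmin was 1.13 (SE 0.33, exact permutation p = 0.0571), and between the control groups it was 0.52 (SE 0.21, exact permutation p = 0.0857), each 0.114 after adjustment. The adjustment over 4 left none under 0.05, and whether the responses of the lines differed in this measure was not tested.

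**Figure D3:**
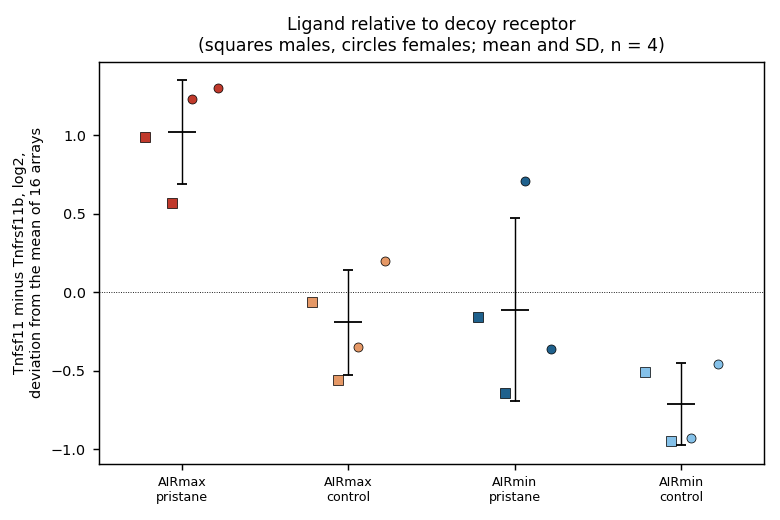
Log2 signal of Tnfsf11 minus that of Tnfrsf11b on each array, as a deviation from the mean of the 16 arrays, with group mean and SD (n = 4; squares males, circles females). AIRmax pristane arrays lie between 0.57 and 1.30, above all control arrays, and 1 AIRmin pristane array lies at 0.71.

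Genes that work beside these 10 were counted as whole lists. Of 16 other genes of resorption (proton pump subunits, the chloride channel Clcn7, the protease Mmp9, integrin beta 3 and their partners) none passed by limma in any comparison. All 16 had a positive fold change in AIRmax pristane over AIRmin pristane footpads, with 9 at an unadjusted p under 0.05 (18.8% of all genes) and a median of 0.47, against -0.01 over all genes. In AIRmax control over AIRmin control footpads 15 of the 16 were positive, with a median of 0.15. There 3 had an unadjusted p under 0.05 (16.8% of all genes). Of 19 measured genes of osteoclast signalling (20 listed, among them Csf1r, Nfatc1 and the adaptor Tyrobp) none passed between the pristane groups by limma. Of the 19, 14 had an unadjusted p under 0.05 there (18.8% of all genes), with a median of 0.54. Between the control groups, AIRmax over AIRmin, 11 of the 19 had such a p (16.8% of all genes). In that comparison 14 of the 19 were positive, with a median of 0.19. One of the 19 signalling genes, Trem2, a myeloid receptor that signals through Tyrobp, passed for the difference between the responses of the lines (1.11 on the log2 scale, SE 0.20, limma adjusted p = 0.0345). For that difference 0.171% of all genes passed. Trem2 averaged 7.49 ± 0.26 in AIRmax pristane and 6.62 ± 0.25 in AIRmax control footpads (SD, n = 4 each). In AIRmin mice it averaged 6.78 ± 0.18 in pristane and 7.03 ± 0.11 in control footpads. That call was lost when any array other than 107, 108, 109, 110 or 118 was left out, with log2 differences between 0.99 and 1.22.

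Among 6 measured repressors of osteoclast formation (8 listed), Tnfaip3, which encodes the A20 inhibitor of NF-kappaB signalling, passed between the pristane groups (1.36% of all genes did). It averaged 6.96 ± 0.18 in AIRmax pristane footpads and 6.21 ± 0.17 in AIRmin pristane footpads (SD, n = 4 each, log2 fold change 0.75, adjusted p = 0.0329). The next list held genes that promote osteoclast formation, namely cytokines and the enzyme gene Ptgs2 (11 measured, 12 listed). Of these, Il1b was higher and Il1a lower in AIRmax than in AIRmin pristane footpads, where 1.36% of all genes passed. Il1b averaged 7.96 ± 0.81 in AIRmax pristane footpads and 5.79 ± 0.61 in AIRmin pristane footpads (log2 fold change 2.18, adjusted p = 0.0431). Il1a averaged 4.52 ± 0.06 in AIRmax pristane footpads and 5.28 ± 0.19 in AIRmin pristane footpads (log2 fold change -0.77, limma adjusted p = 0.0243). The AIRmax pristane mean of Il1a was close to the olfactory receptor percentile of that group, 4.45. Il1b and Il1a both encode interleukin 1 cytokines, which act with RANKL on osteoclasts. None of 8 cytokines listed as able to restrain osteoclast formation passed in any comparison by limma, and 4 of them (Ifng, Ifnb1, Il10 and Csf2) were near background in all 4 groups. Between the pristane groups 3 of these 8 reached an unadjusted p under 0.05 (18.8% of all genes), not all in the same direction.

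Markers of macrophages, which share a lineage with osteoclasts, differed between the same groups. Of 14 macrophage markers 5 passed as higher in AIRmax pristane than in AIRmin pristane footpads (0.853% of all genes did) and none as lower. Among them was Msr1, a scavenger receptor (8.41 ± 0.33 and 6.08 ± 0.31, log2 fold change 2.32, limma adjusted p = 0.00238). The list's mean log2 level per array was 8.76 to 9.14 in AIRmax pristane, 8.31 to 8.48 in AIRmax control, 7.66 to 8.30 in AIRmin pristane and 8.22 to 8.43 in AIRmin control footpads. No macrophage marker was near background in any group. In AIRmax mice 3 of 14 (Msr1, Cd68 and Cd14) passed as higher with pristane, where 0.281% of all genes passed. Of the 14, 11 had a positive fold change in that comparison and the rest a negative one, with a median of 0.53. In AIRmin mice 2 of 14 had a positive fold change with pristane, with a median of -0.44. Of the 14, 9 had an unadjusted p under 0.05 in AIRmin mice (12.4% of all genes). Msr1, Cd68 and Cd14 also passed for the difference between the responses of the lines (0.171% of all genes). There Msr1 and Cd14 passed with any 1 array left out, while Cd68 passed only without array 109, 118 or 120, with log2 differences between 1.24 and 1.59. Their part in the values of Acp5, Ctsk and the other osteoclast genes was not tested. Of the 10 listed genes of all lists that passed between the pristane groups, Msr1 and Pdpn passed with any 1 array left out, Il1b lost its call without any array but 111, and 8 calls were lost without AIRmin pristane array 117, 119 or 120. Without AIRmax pristane array 112, 7 were lost, without 111, 5, without 109, 2, and without 110 or AIRmin pristane array 118, 1. Of the 5 that passed in AIRmax mice, none passed without AIRmax control array 105 or 106, and 1 to 4 passed without any other array.

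Markers of osteoblasts and bone, the cells that make much of the RANKL and osteoprotegerin of bone, gave a different order. None of 8 measured (12 listed) passed in any comparison by limma, though in AIRmin mice all 8 had a negative fold change with pristane and an unadjusted p under 0.05 (12.4% of all genes had such a p), with a median of -0.92. In AIRmax mice 5 of the 8 had such a p (14.4% of all genes), each with a negative fold change with pristane. There 2 of the 8 were positive, and the median was -0.45. Their mean level was 7.45 to 7.74 in AIRmax pristane, 7.93 to 8.09 in AIRmax control, 6.72 to 7.59 in AIRmin pristane and 7.93 to 8.59 in AIRmin control footpads, with none near background. Pdpn, a podoplanin gene on the synovial fibroblast list, averaged 9.43 ± 0.49 in AIRmax pristane footpads and 7.01 ± 0.24 in AIRmin pristane footpads (log2 fold change 2.41, limma adjusted p = 0.00448). It was the only 1 of 8 genes of that list to pass, where 1.36% of all genes did. Pdpn also passed in AIRmax mice as higher with pristane (log2 fold change 1.90, limma adjusted p = 0.0241, 0.281% of all genes). That call was lost without array 105, 106, 107 or 112. For the difference between the responses of the lines Pdpn passed with any 1 array left out (2.29, limma adjusted p = 0.00585 on all arrays, 0.171% of all genes). In AIRmin mice all 8 genes of the synovial fibroblast list had a negative fold change with pristane, with a median of -0.55. Of these 8, 7 had an unadjusted p under 0.05 (12.4% of all genes). The list level was 8.38 to 8.69 in AIRmax pristane, 8.05 to 8.59 in AIRmax control, 7.68 to 8.27 in AIRmin pristane and 8.33 to 8.69 in AIRmin control footpads. Of 7 measured T cell markers (8 listed) Cd2 fell in AIRmax mice with pristane (log2 fold change -1.12, adjusted p = 0.0264), where 0.281% of all genes passed. Their level was 5.25 to 5.57 in AIRmax pristane and 5.67 to 6.21 in AIRmax control footpads, and 5.02 to 5.49 in AIRmin pristane and 5.32 to 5.69 in AIRmin control footpads. The part of these cells in the values of Tnfsf11 and Tnfrsf11b was not tested.

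Marrow and muscle markers of the footpad are given as levels and as counts of fold changes, since 1 of these 18 genes passed in any comparison. Mean levels of 8 granulocyte precursor markers, genes of the bone marrow, were 9.12 to 11.72 in AIRmax pristane, 9.80 to 11.70 in AIRmax control, 7.49 to 10.97 in AIRmin pristane and 6.68 to 9.60 in AIRmin control footpads. The medians of their fold changes were 1.28 between the pristane groups and 2.18 between the control groups, AIRmax over AIRmin, and none passed by limma (0 and 8 of 8 at an unadjusted p under 0.05, against 18.8% and 16.8% of all genes). As a mean deviation from the 16 arrays, the marrow list was at 2.15, -0.24, -0.45 and 2.06 on AIRmax pristane arrays 109, 110, 111 and 112. In the other groups its highest array was also the one highest for the most osteoclast genes, array 108 in AIRmax control (2.13), 118 in AIRmin pristane (1.40) and 116 in AIRmin control footpads (0.03). Mean levels of 10 skeletal muscle markers were 8.27 to 9.92 in AIRmax pristane, 9.72 to 10.30 in AIRmax control, 10.21 to 10.59 in AIRmin pristane and 9.39 to 10.83 in AIRmin control footpads. All 10 had a negative fold change in AIRmax over AIRmin pristane footpads (median -1.21), with 10 at an unadjusted p under 0.05 (18.8% of all genes). Mb (myoglobin) passed there (log2 fold change -1.84, adjusted p = 0.0317), where 1.36% of all genes did. In AIRmax mice all 10 were negative with pristane (median -0.95), with 8 at such an unadjusted p (14.4% of all genes). In AIRmin mice 8 of the 10 were positive with pristane (median 0.10), with 0 at such a p (12.4% of all genes). The 7 measured adipocyte markers (8 listed) were at 6.67 to 7.64 in AIRmax pristane, 7.77 to 8.44 in AIRmax control, 6.99 to 7.95 in AIRmin pristane and 7.99 to 8.71 in AIRmin control footpads, and none passed by limma. All 7 had a negative fold change with pristane in both lines. Of the 7, 6 had an unadjusted p under 0.05 in AIRmax mice (14.4% of all genes, median -0.99). In AIRmin mice 5 did (12.4% of all genes, median -0.85), and between the pristane groups 0 did (18.8% of all genes). None of 8 mature neutrophil, 7 erythroid (8 listed) or 8 B cell precursor markers passed by limma in any comparison. Between the pristane groups 1, 0 and 1 of them had an unadjusted p under 0.05 (18.8% of all genes). Between the control groups 6 of 8 mature neutrophil markers had such a p (median 1.73, AIRmax over AIRmin, 16.8% of all genes). In AIRmax mice 4 of 8 B cell precursor markers did (14.4% of all genes), and all 8 had a negative fold change with pristane (median -0.81). The part of tissue makeup in the osteoclast gene values was not tested.

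**Figure D4:**
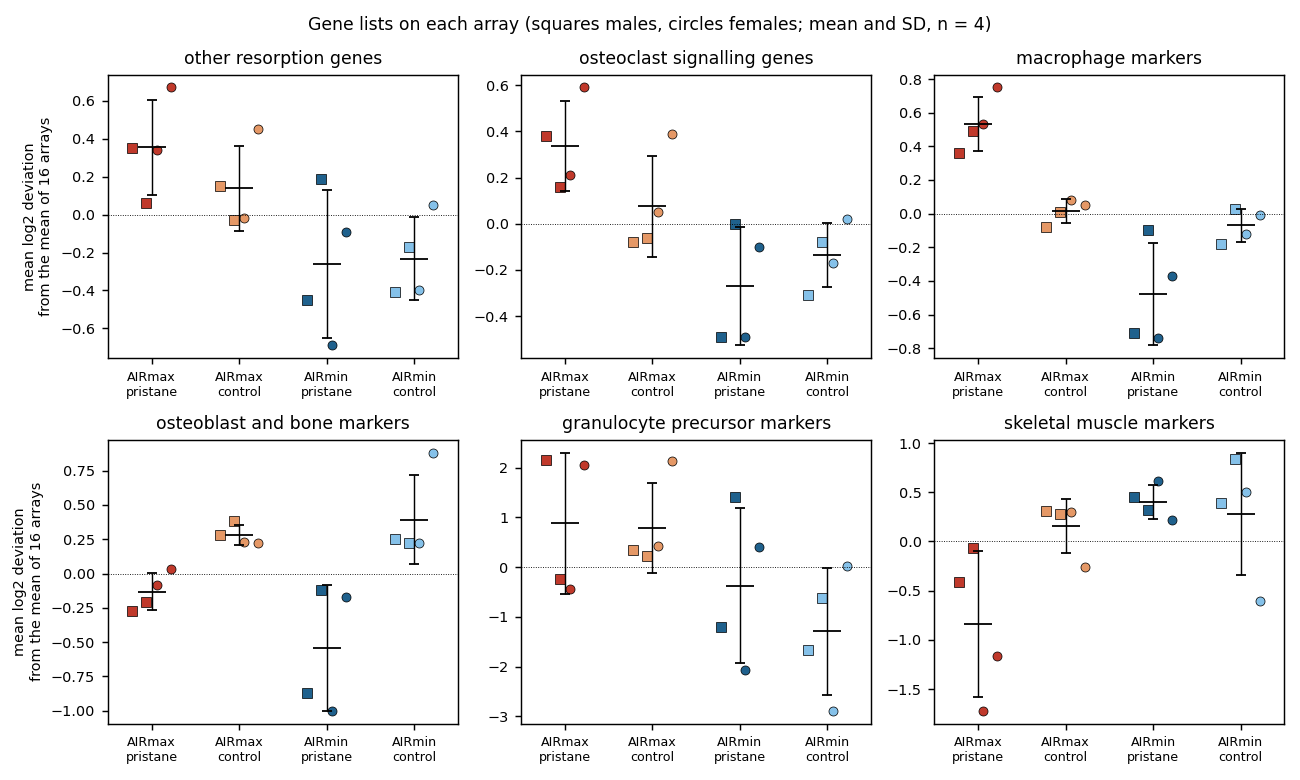
Mean log2 deviation of 6 gene lists from their mean over 16 arrays, on each array (squares males, circles females), with group mean and SD (n = 4). Macrophage markers separate AIRmax pristane from AIRmin pristane arrays, granulocyte precursor markers spread widely within each group, and muscle markers are lowest on the AIRmax pristane arrays 111 and 112.

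Single footpads tended to be high or low for several of the 10 genes together. AIRmax pristane array 112 was the highest of its group for 6 genes and array 110 the lowest for 6. AIRmin control array 116 was the highest of its group for 6, and AIRmax control array 108 for 7. In AIRmin pristane mice arrays 118 and 120 were the highest for 5 and 4 genes, and arrays 117 and 119 the lowest for 5 and 4. To compare profiles, signals were put on a common scale for each gene (deviation from its mean over the 16 arrays, divided by its SD), and the root mean square difference between 2 genes was taken. A value of 0 means the same profile, and the median over all genes was 1.4 for Acp5. Atp6v0d2 was at 0.201 from Acp5, nearer than any gene outside the 10, and Ctsk was at 0.355. Dcstamp, Ocstamp and Oscar followed at 0.505, 0.518 and 0.579. Calcr, near background in all 4 groups, was at 0.732, Tnfrsf11a at 0.841 and Tnfsf11 at 1.12.

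The genes outside the 10 with profiles most like Acp5 were Mpeg1 (0.236), a pore-forming protein of macrophages, Pld4 (0.254), Tmem176a (0.271), Pik3ap1 (0.279) and Tm4sf19 (0.298). For Ctsk they were Ftl1 (0.276), the ferritin light chain, Pld4 (0.302), the lysosomal protease Ctsz (0.306), Pla2g15 (0.325), a lysosomal phospholipase, and P2ry10b (0.332). Tnfrsf11b stood away from the other 9 genes, at 1.58 to 1.8. Its nearest genes were Dpm1 (0.37), Rnf181 (0.374), Mdh1 (0.374), Fermt2 (0.376) and Clu (0.385). All these profiles include the differences between the 4 groups and are given as a description over 16 arrays.

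**Figure D5:**
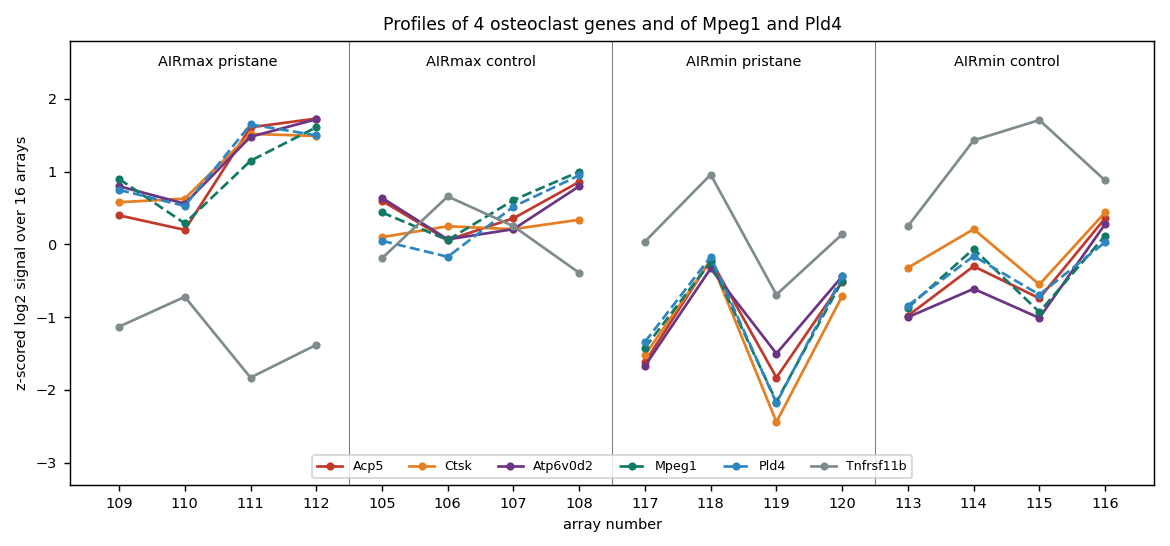
Profiles of Acp5, Ctsk, Atp6v0d2 and Tnfrsf11b (solid) and of Mpeg1 and Pld4 (dashed) over the 16 arrays, as log2 signal less the gene's mean, divided by its SD. Lines join arrays of a group only to guide the eye. Arrays 111 and 112 are highest and array 119 lowest for Acp5, Ctsk and Pld4 alike, and Tnfrsf11b runs apart from them.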

How the data were processed

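Footpad RNA of 16 mice, 4 per line and treatment, was hybridized to 1 Affymetrix Mouse Gene 1.0 ST array each. The authors deposited normalized signals on a log2 scale, 1 value for each probe set. The sample titles name gene-level RMA and the submitters' notes name MAS5, with no version given in the sources used here. They were used without further transformation, and array medians ran from 5.435 to 5.53. Arrays give no read depth, so precision is limited by having 4 of them in a group.

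Of 35556 probe sets, 21789 named 1 gene in the annotation, and those naming several (1621) or none (12146) were left out. For 999 genes with more than 1 probe set the one with the highest mean over 16 arrays was kept, which gave 19938 genes, and 21698 of the probe sets matched RefSeq by Entrez number. Each pair of groups was fitted with limma 3.58.1 in R 4.3.3 (lmFit and eBayes) on its 8 arrays, and the difference of responses on all 16. Benjamini-Hochberg adjustment covered all 19938 genes, a gene passed at an adjusted p under 0.05, and standard errors are those of limma. SAM, the method of the study, was not run. Tnfsf11 minus Tnfrsf11b was compared by exact permutation tests. The fits were tested on simulated data. Tables and figures used Python 3.11.15, numpy 2.4.6, pandas 2.3.3 and matplotlib 3.10.9.

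The 10 genes and all lists were chosen with earlier results of these data known. Genes named in the text are the 10, up to 4 genes per list (those that passed, by smallest p), and the 5 genes most like Acp5, Ctsk and Tnfrsf11b. Alternatives were the mean of probe sets, standardized arrays, quantile normalization, genes above the median signal only, sex added as a covariate, all arrays fitted together, limma's trended and robust prior, and each array left out. Labelled sex was checked with Xist and Y-linked genes and held on all 16 arrays. The labels do not say whether littermates were used, and mice are taken as separate animals.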

Additional observations from a re-analysis of the deposited data

Results flagged for a closer look

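In AIRmin control footpads Tnfrsf11a was 6.61 on array 115, a female, while the other 3 arrays of the group all rounded to 6.56. The gap to the nearest array was 0.888 of the whole range, above Dixon's critical value for 4 arrays. The range itself was narrow, since the SD of the group was 0.02. This was 1 of 44 sets of 4 arrays examined, and chance alone flags about 1 set in 20.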

How the results depend on the processing

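Every other setting was run for all 5 comparisons, except the fit of all 16 arrays for the difference of responses, which already uses them. For AIRmax pristane against AIRmin pristane the count of 3 osteoclast genes became 1 (Atp6v0d2) when genes below the median signal were left out, which left 6 of the 10 to test. Ctsk then missed the threshold (limma adjusted p = 0.0501). The count was 2 with the mean of probe sets or the trended and robust prior, where Ctsk lost its call (limma adjusted p = 0.0504 and 0.0652). It was 4 with standardized arrays or quantile normalization, where Ocstamp gained a call (limma adjusted p = 0.0453 and 0.0379). It became 8 with all 16 arrays in 1 fit, and lay between 0 and 6 with 1 array left out. For AIRmax pristane against AIRmax control the count of 0 became 1 (Tnfrsf11a, 1.7% of all genes passing) with all 16 arrays in 1 fit and stayed at 0 with any array left out. For the difference of responses it lay between 0 and 1, and for the other 2 comparisons it was 0 throughout. Over all alternatives the adjusted p between the pristane groups ranged from 0.00354 to 0.117 for Atp6v0d2, 0.00346 to 0.164 for Ctsk and 0.00898 to 0.164 for Dcstamp. Of 800 refitted fold changes 752 kept their direction and side of the threshold, 23 lost a call, 13 gained one and 12 changed sign, none of them in a called value. Calcr between the control groups became 0.02 with quantile normalization and ranged from -0.07 to 0.03 with 1 array left out, and Tnfrsf11a there from -0.07 to 0.00. Within AIRmin mice the pristane response ranged from -0.12 to 0.03 for Ocstamp, -0.11 to 0.16 for Dcstamp and -0.08 to 0.11 for Tnfsf11 with 1 array left out. With 1 array left out, Tnfsf11 minus Tnfrsf11b differed by 1.09 to 1.36 in AIRmax mice, 0.33 to 0.78 in AIRmin mice, 0.96 to 1.41 between the pristane groups and 0.39 to 0.64 between the control groups. The cause of these shifts was not tested. No paired analysis was possible because the labels give the groups no shared replicate numbers. Low signal limits Calcr, and Oscar and Dcstamp in AIRmin mice.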
